A study of Homo sapiens with 14 samples.

Results

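The primed SOX2 peaks of WIBR3 cells were divided by whether the BAF chromatin remodelling complex had been called at the same place. WIBR3 is a long-established line of human embryonic stem cells (hESCs), and no other line was used. Primed cells grew on mouse feeder cells in medium with serum, serum replacement and FGF2, and the naïve cells used for comparison grew on feeders in serum-free medium with inhibitors and LIF. A BAF region was made by merging the primed peaks of BRG1 (SMARCA4), the ATPase subunit, with those of BAF155 (SMARCC1), a scaffold subunit, and a SOX2 peak was counted as meeting a region when the overlap covered at least 25% of either. Of the 9290 SOX2 peaks on chromosomes 1 to 22 and X, 4282 met a region that held peaks of both subunits (BRG1+BAF155), 3932 met a region with BAF155 peaks alone (BAF155 only), 1073 met none (no BAF), and 3 met a region with BRG1 alone. These are 9290 of the 234225 peaks in the 10 lists of the series, and there were 58508 primed BAF regions. The series covers 14 samples of naïve and primed WIBR3 cells, of which 4 are inputs. No genotype or drug differed between the groups compared here, because all 3 groups are peaks of the same primed SOX2 list. The BAF libraries that divide them were made and sequenced apart from the SOX2 libraries, with an input of their own.

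The lists of both primed SOX2 libraries had the same coordinates and were counted as 1 sample, and BRG1 and BAF155 had 1 library each. No value below therefore has a replicate error, no test was made, and the exact Clopper-Pearson 95% intervals cover counting error only. The fold of a peak is the enrichment over input that the authors' peak caller gave it. No RNA was measured, so cell type markers appear here only as loci.

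SOX2 is an HMG-box transcription factor that binds a short core (CATTGT or CTTTGT) and, in pluripotent cells, often does so beside OCT4, which binds the octamer (ATGCAAAT). The joined OCT4-SOX2 element puts the SOX core 1 base ahead of the octamer. BAF uses ATP to move or evict nucleosomes and has no strict sequence preference of its own, so transcription factors are one way in which it can be directed to enhancers and promoters. In the neural lineage SOX2 is also known as a factor of early progenitors.

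The OCT4-SOX2 element was present near the summit of 20.1% of BRG1+BAF155, 18.1% of BAF155 only and 14.3% of no BAF peaks. The sequences below are chosen examples from the 3 groups, and those marked for the element were chosen because they had it. All are from hg38, are read 5′ to 3′ on the stated strand, and lie around the summit of a SOX2 peak. Capitals mark the best 14-base match to the OCT4-SOX2 element, with up to 2 mismatches. The first belongs to the BRG1+BAF155 group. It lay 4.21 kb downstream of the start of SOX2 itself, with 1 mismatch, and was the strongest SOX2 peak at that locus.
SOX2 site (chr3:181716082-181716181, plus strand): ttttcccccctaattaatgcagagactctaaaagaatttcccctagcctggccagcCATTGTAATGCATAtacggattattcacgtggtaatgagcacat

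The next 4 belong to the BAF155 only group. WWTR1 encodes the Hippo pathway coactivator TAZ, LEFTY2 encodes an inhibitor of NODAL signalling, PTPRZ1 encodes a receptor tyrosine phosphatase of neural progenitors, and NANOG is a homeobox factor of pluripotent cells. The WWTR1 site and the PTPRZ1 site were intronic, the LEFTY2 site was intergenic, and the NANOG site lay 99 bp from a NANOG TSS. The NANOG match was exact, the WWTR1 match had 1 mismatch, and the others had 2.
WWTR1 site (chr3:149574442-149574541, minus strand): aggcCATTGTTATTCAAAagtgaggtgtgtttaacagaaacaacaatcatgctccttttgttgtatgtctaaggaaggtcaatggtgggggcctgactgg
LEFTY2 site (chr1:225945836-225945935, plus strand): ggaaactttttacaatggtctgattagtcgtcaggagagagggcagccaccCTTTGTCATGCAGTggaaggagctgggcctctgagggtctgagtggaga
PTPRZ1 site (chr7:121937371-121937470, plus strand): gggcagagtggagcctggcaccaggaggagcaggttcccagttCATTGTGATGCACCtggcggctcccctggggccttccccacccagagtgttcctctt
NANOG site (chr12:7789253-7789352, minus strand): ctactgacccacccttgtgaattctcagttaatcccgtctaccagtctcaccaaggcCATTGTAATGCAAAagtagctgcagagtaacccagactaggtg

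Some sites in the no BAF group carried the element as well. CAMLG encodes a protein of the machinery that inserts tail-anchored proteins, PILRA an inhibitory immune receptor and GMDS an enzyme of fucose synthesis. The CAMLG match, 486 bp from the TSS, had 1 mismatch, and the intronic PILRA and GMDS matches had 2.
CAMLG site (chr5:134749534-134749633, minus strand): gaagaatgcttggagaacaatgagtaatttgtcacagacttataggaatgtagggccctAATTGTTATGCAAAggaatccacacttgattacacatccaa
PILRA site (chr7:100370488-100370594, minus strand): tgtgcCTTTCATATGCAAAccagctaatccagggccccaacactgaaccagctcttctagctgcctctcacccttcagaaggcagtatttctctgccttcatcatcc
GMDS site (chr6:2164661-2164760, minus strand): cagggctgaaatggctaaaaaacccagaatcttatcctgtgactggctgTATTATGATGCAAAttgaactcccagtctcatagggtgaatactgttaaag

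Other strong sites had a SOX core without the longer element. Here capitals mark every SOX core on either strand. EPHA2 encodes an ephrin receptor and its site was intergenic in the BRG1+BAF155 group. ZBTB16, a zinc finger repressor, and DNMT3B, the de novo DNA methyltransferase, had sites of the BAF155 only group, in an intron and 647 bp from the TSS.
EPHA2 site (chr1:16116074-16116173, plus strand): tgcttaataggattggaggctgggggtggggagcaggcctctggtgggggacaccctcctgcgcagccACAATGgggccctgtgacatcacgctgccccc
ZBTB16 site (chr11:114232752-114232851, plus strand): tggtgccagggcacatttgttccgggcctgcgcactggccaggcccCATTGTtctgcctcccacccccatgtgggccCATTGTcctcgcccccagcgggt
DNMT3B site (chr20:32780921-32781020, plus strand): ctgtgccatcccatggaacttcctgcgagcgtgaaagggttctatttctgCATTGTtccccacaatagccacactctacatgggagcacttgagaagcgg

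SOX2 peaks with both BAF subunits were stronger and wider than those without. The median fold was 7.71 (quartiles 5.92 and 10.8) in the BRG1+BAF155 group, 6.38 (5.38 and 8.09) in the BAF155 only group and 5.86 (5.02 and 6.94) in the no BAF group. The median width was 334 bp, 280 bp and 250 bp. The ranges of fold overlapped widely, with a highest value of 39.5, 29.9 and 20.0. When all peaks were ranked by fold and divided into 10 equal parts, the BRG1+BAF155 share was 36.4% in the lowest part (interval 33.3 to 39.6%) and 80.4% in the highest (77.7 to 82.9%). The no BAF share was 16.7% (14.3 to 19.2%) and 1.18% (0.593 to 2.11%), or 11 peaks. Over the lower 5 parts the BRG1+BAF155 share stayed between 33.4% and 37.9%, and it was higher in each of the 5 parts above. BAF155 itself was also stronger in the BRG1+BAF155 group, with a median BAF155 fold of 4.54 (quartiles 3.93 and 5.25) against 3.51 (3.11 and 4.03) in the BAF155 only group. The BRG1 list was the shorter one, with 15611 peaks against 58352 for BAF155. The groups of SOX2 peaks were not compared at like BAF155 fold, and its part in their differences was not tested.

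**Figure D1:**
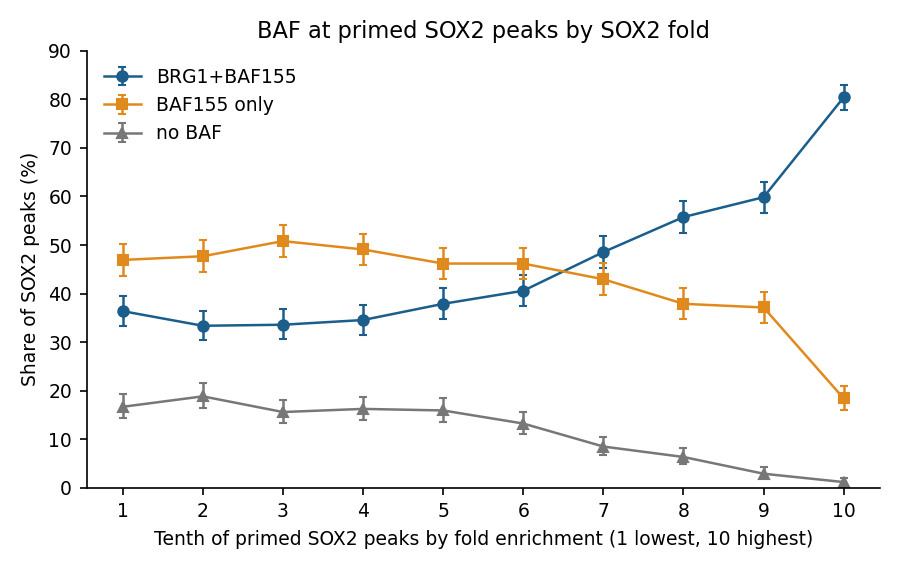
Share of primed SOX2 peaks in each group (y axis, percent, with exact 95% counting intervals) for 10 equal parts of the list by SOX2 fold (x axis, lowest to highest). BRG1+BAF155 is at 36.4% in the lowest part and 80.4% in the highest, while no BAF goes from 16.7% to 1.18%.

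Few peaks lay near the limit of the overlap rule. In 7742 of the 8217 peaks that met a region, the overlap covered at least 75% of the peak or the region. Only 14 peaks were within 25.4 to 29.7%, and 36 no BAF peaks overlapped a region by less than the rule asks, up to 24.8%. Just inside were peaks nearest to PHACTR3 (25.4%), ZFTA (25.5%) and DENND2B (25.5%), and just outside were peaks nearest to PES1 (24.8%), CDKL1 (24.5%) and ENOX2 (23.8%). The summit of a no BAF peak lay at a median of 12.1 kb from the nearest BAF region. It was within 1 kb in 128 peaks and more than 10 kb away in 586. Holding the BAF155 list to as many top peaks as the BRG1 list has put 40.2% of SOX2 peaks in the no BAF group, and requiring 25% of both regions put 36.6% there.

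Seen from the BAF side, regions with both subunits held SOX2 more often. A SOX2 peak was present in 4042 of 14594 regions with both subunits (27.7%, interval 27 to 28.4%) and in 3886 of 43758 regions with BAF155 alone (8.88%, 8.62 to 9.15%). Strength of the BAF155 peak moved with this, so regions were also compared at like BAF155 fold. With regions divided into 4 equal classes by BAF155 fold, in the weakest class 5.64% of regions with SOX2 and 3.11% of those without also had BRG1. The shares were 17.4% and 11.3% in the second class and 33.3% and 26.5% in the third. In the strongest class they were 70.7% (69.3 to 72.0%) and 51.7% (50.8 to 52.7%). The intervals of regions with and without SOX2 did not overlap in any class. Regions with SOX2 were also wider in each class. Their median was 466 bp against 410 bp in the weakest and 839 bp against 520 bp in the strongest. The part of this width in the BRG1 shares was not tested. More than 1 SOX2 peak was found in 267 regions, which held 553 peaks with at most 4 in a region, and 223 of these regions had both subunits.

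The place of the SOX2 summit within the BAF region was measured from 0 at the left edge to 1 at the right. The summit lay in the central 33.3% of the region's length in 50.3% of BRG1+BAF155 peaks (interval 48.8 to 51.8%) and 47.0% of BAF155 only peaks (45.4 to 48.5%), where an even spread would give 33.3%. Regions of the first group were wider, with a median of 1137 bp against 516 bp. In bp its summits were farther from the region's centre, at a median of 183.5 bp against 84.5 bp. At like width the groups differed more in regions up to 2000 bp. In regions over 300 and up to 500 bp the summit was central in 80.1% (75.9 to 83.9%) and 61.9% (59.0 to 64.8%), and in regions over 500 and up to 1000 bp in 64.1% (61.5 to 66.6%) and 45.2% (42.4 to 48.0%). In regions over 1000 and up to 2000 bp the shares were 38.5% (36.1 to 41.0%) and 29.9% (26.4 to 33.7%), the latter not above an even spread. In regions over 2000 bp both shares were near an even spread, at 35.5% and 35.2%. Central shares were also compared at like SOX2 fold. In 4 equal classes of the peak list by SOX2 fold, from lowest to highest, the central shares were 42.4% and 43.2%, 49.7% and 45.0%, 48.6% and 47.7%, and 55.8% and 55.3%. The BRG1+BAF155 share was the lower one in the lowest class, and the groups were farthest apart in the second. The summit fell outside the region it met in 10 BRG1+BAF155 peaks (0.234%) and 159 BAF155 only peaks (4.04%).

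**Figure D2:**
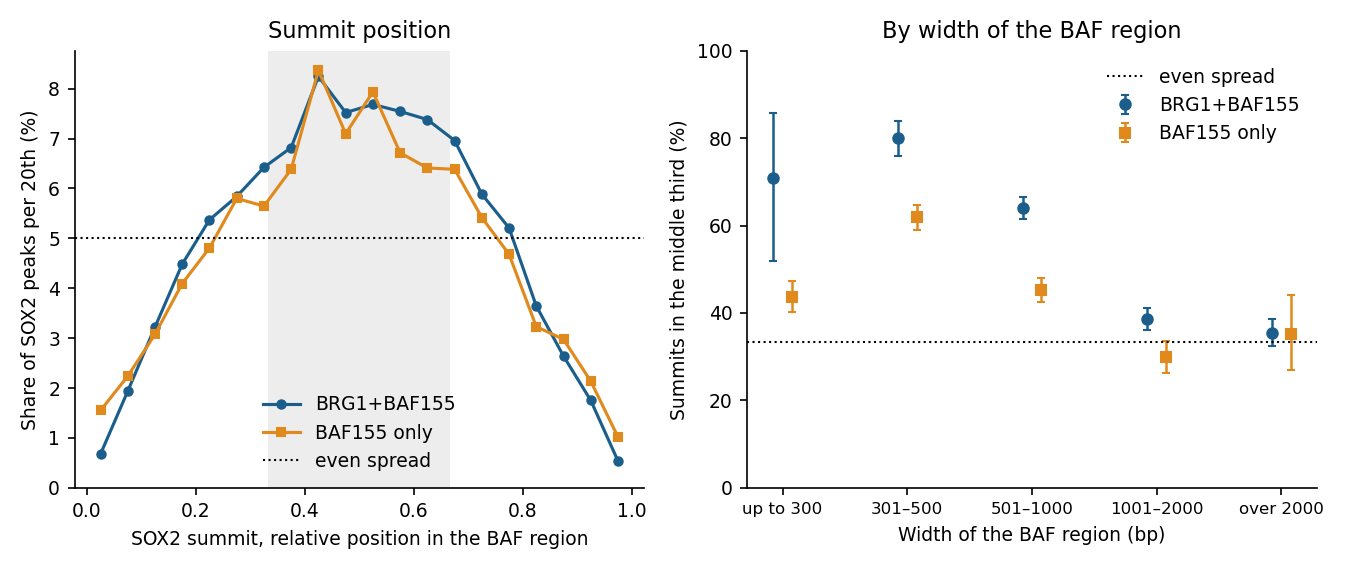
Left, distribution of SOX2 summits along the BAF region from edge to edge (x axis) as percent of peaks per bin of 5% of the length (y axis), with the central 33.3% shaded. Right, percent of summits in the central 33.3% (exact 95% counting intervals) by width of the region in bp. BRG1+BAF155 lies above BAF155 only at over 300 to 500 bp (80.1% against 61.9%), and both are near the dotted line of an even spread over 2000 bp.

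Where a SOX2 peak met a peak of each subunit, the SOX2 summit was closer to a BRG1 midpoint than to a BAF155 midpoint. Distances were taken to the nearest peak midpoint in each list, which need not be that of the peak met. Over 3887 such peaks, the median distance was 67 bp to the nearest BRG1 midpoint (quartiles 28 and 135 bp) and 162 bp to the nearest BAF155 midpoint (61 and 351 bp). The BRG1 midpoint was the nearer one in 70.9% (interval 69.4 to 72.3%). Peak width differs in the same direction, since the BRG1 peaks met had a median of 335 bp and the BAF155 peaks 1044 bp, and its part in the distance was not tested. The same order held within 1 kb of a TSS (103 bp and 289 bp, 648 peaks) and farther away (62 bp and 143 bp, 3239 peaks).

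Most SOX2 peaks of every group lay away from promoters. The summit was within 1 kb of an annotated transcription start site (TSS) in 812 BRG1+BAF155 peaks (19.0%, interval 17.8 to 20.2%), 561 BAF155 only peaks (14.3%, 13.2 to 15.4%) and 120 no BAF peaks (11.2%, 9.36 to 13.2%). The median distance was 8.45 kb, 10.7 kb and 11.9 kb. Introns held a like share of each group, at 47.9%, 48.1% and 47.7%, and intergenic sequence held 30.6%, 34.6% and 37.6%. Promoter peaks were weaker in each group than the others, with a median fold of 6.95, 5.99 and 5.50 against 7.92, 6.51 and 5.97. In the 4 classes of SOX2 fold the promoter shares had the same order, at 23.3%, 18.5% and 15.0% in the lowest, 23.5%, 14.0% and 7.77% in the second, 18.7%, 12.0% and 10.3% in the third and 14.5%, 11.2% and 10.5% in the highest. In the highest class the intervals of all 3 groups overlapped, with 57 no BAF peaks.

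The promoter order depended on how BAF was called. With 25% of both regions required, 24.5% of no BAF peaks lay within 1 kb of a TSS, above 11.5% of BRG1+BAF155 peaks and 10.9% of BAF155 only peaks, and BAF regions met at promoters were wider (median 1707 bp against 1053 bp elsewhere for BRG1+BAF155). The part of region width in this was not tested. With only BAF peaks of −log10 q of at least 3, the shares were 14.0% for BRG1+BAF155, 16.4% for BAF155 only and 16.9% for no BAF.

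**Figure D3:**
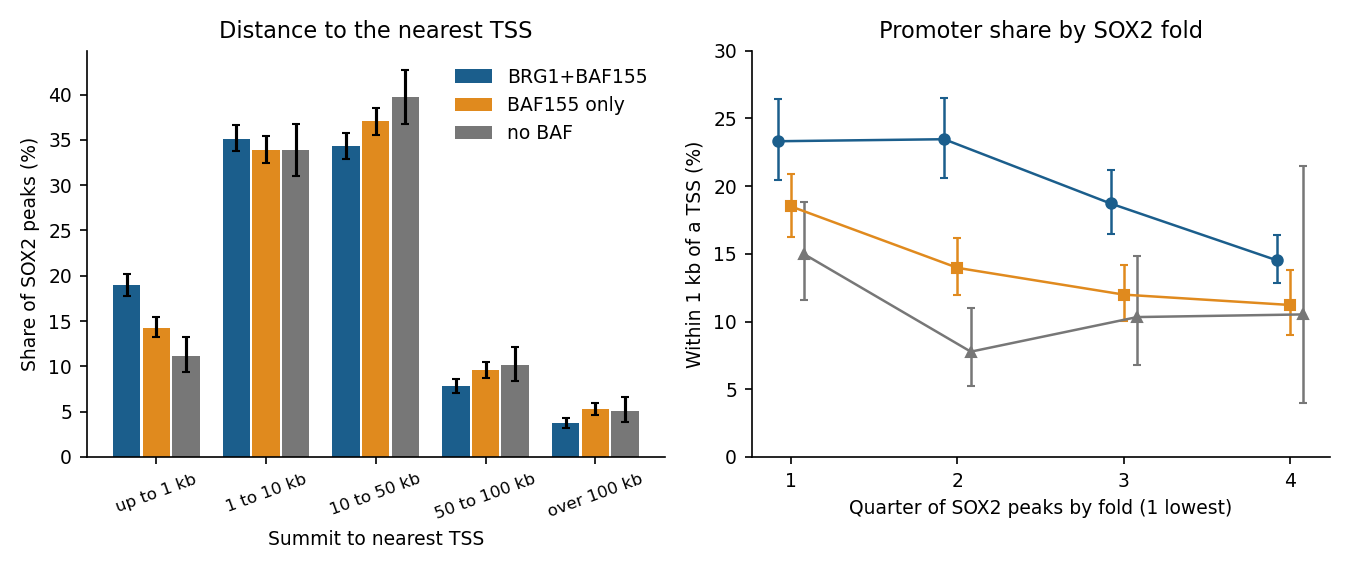
Left, percent of SOX2 peaks per group (bars, exact 95% counting intervals) by distance from summit to nearest TSS. Right, percent within 1 kb of a TSS by class of SOX2 fold, lowest to highest. In the second class the groups stand at 23.5%, 14.0% and 7.77%, and in the highest their intervals overlap.

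The SOX core was the check on the SOX2 label. It was present in the 200 bp at the summit of 60.6% of all peaks (interval 59.6 to 61.6%), against 24.6% of windows 2 kb to either side and 27.1% of windows at the middle of all primed BAF regions. By group the share was 58.9% (57.4 to 60.4%) with BRG1+BAF155, 61.9% (60.4 to 63.4%) with BAF155 only and 62.7% (59.7 to 65.6%) with no BAF, while 2 kb away it was 24.0%, 24.9% and 25.9%. Over the whole list, peaks without BAF had the core at least as often as the others. From the lowest to the highest class of SOX2 fold the shares were 50.5%, 54.3%, 60.9% and 64.2% with BRG1+BAF155, against 56.6%, 65.4%, 68.2% and 64.9% with no BAF.

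The OCT4-SOX2 element went the other way over the whole list. It was present in 20.1% of BRG1+BAF155 peaks (interval 18.9 to 21.3%), 18.1% of BAF155 only peaks (16.9 to 19.3%) and 14.3% of no BAF peaks (12.2 to 16.5%), against 1.54%, 1.58% and 1.72% at 2 kb and 4.49% of all primed BAF regions. SOX2 fold moved with this. In the lowest class of fold the shares were 13.0%, 13.1% and 12.0%, in the second 16%, 17.9% and 13.4%, in the third 21.5%, 20.7% and 16.9%, and in the highest 25%, 22.6% and 24.6%. Within each class the intervals of all 3 groups overlapped. The match lay at a median of 28, 28 and 24 bp from the summit, and within 50 bp in 75.5%, 75.4% and 75.8% of the peaks that had it. The octamer alone, which overlaps the element, was present in 9.69%, 8.98% and 7.92%.

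Motifs of other factor families were searched in the same windows. The AP-1 consensus (TGANTCA), bound by FOS and JUN, was present in 12.1% of BRG1+BAF155 peaks (11.1 to 13.1%), 9.26% of BAF155 only peaks (8.37 to 10.2%) and 6.06% of no BAF peaks (4.71 to 7.66%). At 2 kb it was present in 5.86%, 6.14% and 6.24%, so the no BAF peaks were at the level of their surroundings. The TEAD consensus (GGAATG), of the Hippo pathway factors, was present in 19.8%, 16.5% and 14.3%, with 11.1%, 11.2% and 11.7% at 2 kb. The ZIC consensus (CCTGCTG), of zinc finger factors active in primed cells and neuroectoderm, was present in 15.9%, 12.9% and 9.69%, with 4.52%, 4.60% and 5.08% at 2 kb. The TFAP2 consensus (GCCNNNGGC), of factors of trophoblast and surface ectoderm, was present in 6.84%, 5.19% and 3.91%, with 4.10%, 3.89% and 3.36% at 2 kb. All primed BAF regions held AP-1 in 9.58%, TEAD in 14.3%, ZIC in 11.6% and TFAP2 in 12.9% of windows. At like SOX2 fold the AP-1 difference was present in each class, with 13.1%, 12.6%, 11.7% and 11.6% of BRG1+BAF155 peaks from the lowest class to the highest and 6.73%, 6.43%, 5.37% and 1.75% of no BAF peaks, the last from 1 of 57. TEAD was present in 18.8%, 21.8%, 20.0% and 19.0% of BRG1+BAF155 peaks and 14.0%, 18.0%, 9.50% and 12.3% of no BAF peaks. ZIC was present in 13.2%, 15.9%, 15.3% and 17.6% of the former and 8.48%, 10.5%, 10.3% and 10.5% of the latter. Between BRG1+BAF155 and no BAF peaks the ZIC intervals overlapped in every class, and the TEAD intervals in all but the third. The AP-1 intervals did not overlap in any class. BAF155 only peaks were not always between the others, as TEAD was present in 16.8% of them in the second class.

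**Figure D4:**
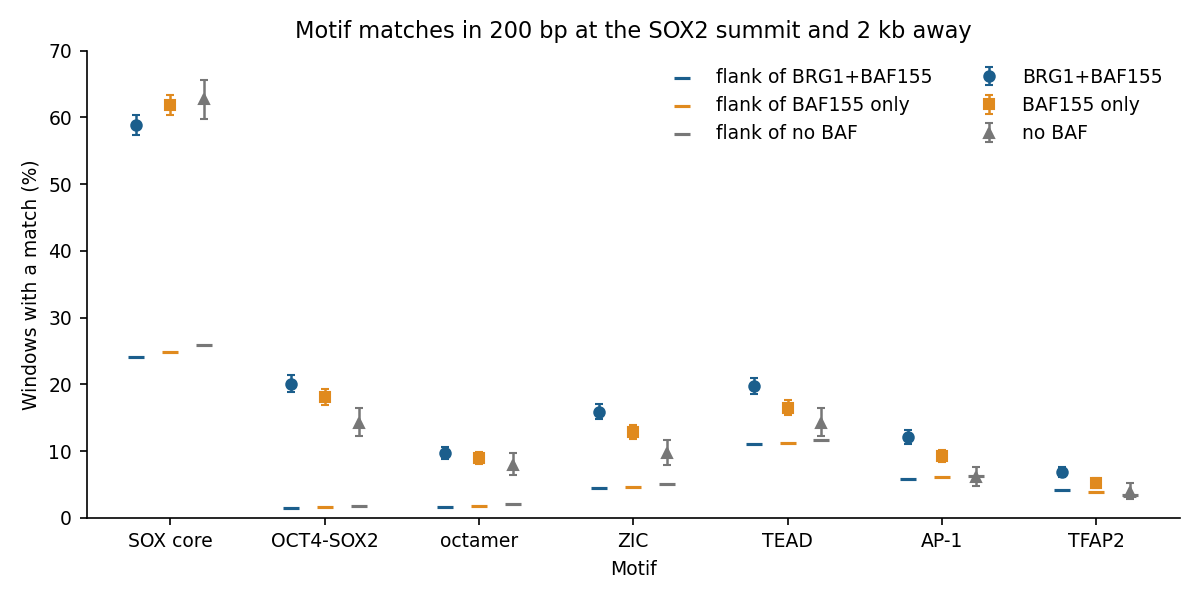
Percent of 200 bp windows with a match (y axis) for 7 motifs at SOX2 summits of each group (points, exact 95% counting intervals) and in windows 2 kb to either side (dashes). The no BAF group is level with the others for the SOX core (62.7%) and level with its flanks for AP-1 (6.06% against 6.24%).

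The primed SOX2 sites were also set against the naïve lists of the same line. A naïve BAF region, merged in the same way, lay at 52.5% of BRG1+BAF155 sites (interval 51.0 to 54.0%), 35.4% of BAF155 only sites (33.9 to 36.9%) and 21.5% of no BAF sites (19.1 to 24.1%). At like fold the order was the same, with 49.0%, 36.4% and 23.9% in the lowest class of SOX2 fold and 56.9%, 38.3% and 22.8% in the highest. Naïve SOX2 peaks lay at 13.3%, 8.01% and 4.29% of the sites, and this share moved with SOX2 fold. It was 4.24%, 5.00% and 2.00% in the lowest class and 23.8%, 18.0% and 14.0% in the highest. There the no BAF interval (6.26 to 25.8%) overlapped those of both other groups. Naïve peaks of BRM (SMARCA2), the alternative ATPase, lay at 17.9%, 8.11% and 2.52%, and were not compared at like fold. The primed BRM list overlapped 3 of the SOX2 peaks, of which 1 was in the BAF155 only group and 2 in the no BAF group.

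Repeated sequence moved with the groups. The 31 bases at the summit occurred more than once in hg38 in 3.46% of BRG1+BAF155 peaks (interval 2.93 to 4.05%), 5.60% of BAF155 only peaks (4.90 to 6.36%) and 13.6% of no BAF peaks (11.6 to 15.8%). Libraries of SOX2 were paired-end and those of the BAF subunits single-end, and the part of read type in the groups was not tested. Without such peaks the no BAF share was 10.6%, against 11.6% over all. The stretch of X that is identical to Y (10001 to 2781479) held 16 SOX2 peaks, all in the no BAF group, with folds from 3.65 to 20.0. None of the naïve or primed lists of BRG1, BAF155 and BRM had a peak there, and the first primed BAF155 peak on X started at 2799099. The SOX core was present at 8 of these 16 peaks. On X the no BAF share was 12.0%, and 9.30% without this stretch.

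SOX2 peaks with both subunits more often had another SOX2 peak of any group nearby. Another SOX2 summit was within 10 kb of 23.6% of BRG1+BAF155 peaks (interval 22.3 to 24.9%), 13.9% of BAF155 only peaks (12.8 to 15.0%) and 13.2% of no BAF peaks (11.3 to 15.4%). The median distance to the nearest other summit of any group was 51.3 kb, 78.2 kb and 85.5 kb. Peaks placed in the same BAF region share a group by rule. Of the 267 regions with more than 1 SOX2 peak, 223 had both subunits, and the part of this in the spacing was not tested.

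Each peak was assigned to the protein-coding gene with the nearest TSS when that was within 20 kb. Of 20007 such genes, 1615 (8.07%) had a BRG1+BAF155 peak, 1506 (7.53%) a BAF155 only peak and 397 (1.98%) a no BAF peak, and 3103 (15.5%) had a peak of any group. A single peak was assigned to 2391 genes. A gene with a single peak can belong to one group alone. Genes with peaks of one group alone numbered 1254 of those 1615, 1157 of those 1506 and 289 of those 397. Of the 1615 genes with a BRG1+BAF155 peak 308 also had a BAF155 only peak, where 7.53% of all 20007 genes had one. Of the 397 genes with a no BAF peak 108 (27.2%) also had a peak with BAF, where 2813 of all 20007 genes had one. These 108 are 3.84% of the 2813 genes with a BAF peak. Peaks of all 3 groups lay at 14 genes, among them AXIN2, a feedback inhibitor of WNT signalling (folds up to 21.4, 6.56 and 5.78), and RUNX1, a factor of blood development (13.1, 6.55 and 6.36).

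Genes of pluripotency and of the primed state had mostly BRG1+BAF155 peaks. Of 22 pluripotency genes 16 had a BRG1+BAF155 peak, 7 a BAF155 only peak and 1 a no BAF peak. Among all 20007 protein-coding genes the shares were 8.07%, 7.53% and 1.98%. In the highest of 10 parts by SOX2 fold, 80.4% of all peaks were in the BRG1+BAF155 group. None of the gene lists was compared at like SOX2 fold, so the part of peak strength in their counts was not tested. The highest folds were at SOX2 (24.2), LIN28B (20.4), an RNA-binding protein, DPPA4 (19.7) and POU5F1 (19.2), which encodes OCT4. DNMT3B (19.2) and SALL4 (9.89) led the BAF155 only members, and DPPA2 (5.86) was the no BAF member. Of 24 primed-state genes 15, 5 and 1 had such peaks, led by TCF7L1 (26.9), a WNT pathway repressor, OTX2 (24.2), a homeobox factor of the epiblast, SFRP2 (17.3) and ETV4 (13.8). Naïve-state genes were nearer to the background, with 3, 4 and 1 of 20. They were DPPA5 (22.8), TBX3 (8.47) and KLF5 (5.70) with both subunits, ALPG (18.6), KLF4 (8.47), TBX3 (6.98) and KLF5 (6.69) with BAF155 alone, and KLF17 (7.32) with no BAF.

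Signalling genes were counted by pathway. FGF and ERK genes had BRG1+BAF155 peaks in 15 of 28, BAF155 only peaks in 6 and no BAF peaks in 2. They included the receptor FGFR1 (39.5) and the feedback inhibitors SPRY2 (22.3), SPRED2 (20.9) and IL17RD (17.5), and DUSP10 (6.08) was one of the no BAF members. WNT genes had 14, 7 and 3 of 32, with AXIN2 (21.4), SP5 (17.6), FZD2 (17.4) and FZD3 (14.0) in the first group and SFRP1 (8.47), SP5 (7.29) and AXIN2 (5.78) in the last. NODAL and TGF-beta genes had 9, 7 and 0 of 27. LEFTY1 (19.4), SKI (17.0) and SMAD7 (16.1), which restrain the pathway, led the first group, and LEFTY2 (14.8) and SMAD4 (11.3) the second. NOTCH genes had 5, 2 and 0 of 18, led by the ligand JAG1 (18.5).

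Lineage genes are described next, and their few no BAF members are to be read against the 1.98% of all genes that had such a peak. Neuroectoderm genes had BRG1+BAF155 peaks in 12 of 30, BAF155 only peaks in 11 and none without BAF. NES (20.2), an intermediate filament of neural progenitors, MEIS2 (13.3) and HESX1 (13.3) led the first group, and ZIC4 (12.7), RAX (12.1), PAX7 (8.09) and PAX6 (7.53) the second. Mesoderm and endoderm genes had 9, 5 and 1 of 24, with CER1 (16.9) and MSGN1 (16.5) in the first group, and GSC (11.5) in the second. Trophoblast genes had 4, 4 and 0 of 16, with CDX2 (35.7) far above GATA3 (9.24). A list of 13 SOX family genes, which leaves out those counted in other lists, had 6, 0 and 0. The 6 were SOX6 (20.0), SOX13 (18.9), SOX21 (17.6), SOX5 (16.4), SOX14 (11.6) and SOX4 (4.64), and SOX10 (5.79) had one of the 3 peaks with BRG1 alone. SOX1, counted with neuroectoderm, had a BAF155 only peak (6.39).

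Eph, ephrin and axon guidance genes were the list with most no BAF members, and also the longest list. They had 8, 8 and 5 of 41, and the last is 12.2% of the list, against 9.38% for WNT genes. EPHA2 (36.8) and EFNB1 (16.1) were in the first group and EPHB3 (13.4) in the second. UNC5D (13.8), a netrin receptor, NRP2 (7.04), SEMA6A (6.69), EPHA4 (6.51) and EPHB3 (4.57) had no BAF peaks, and the last 4 also had peaks with BAF. The summit sequence of this UNC5D peak had 20 copies in hg38. Genes of BAF subunits had 4, 2 and 0 of 27, led by SMARCA2 (24.8), the gene of BRM, and ribosomal protein genes had 1, 0 and 0 of 30, the member being RPS23 (7.97).

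**Figure D5:**
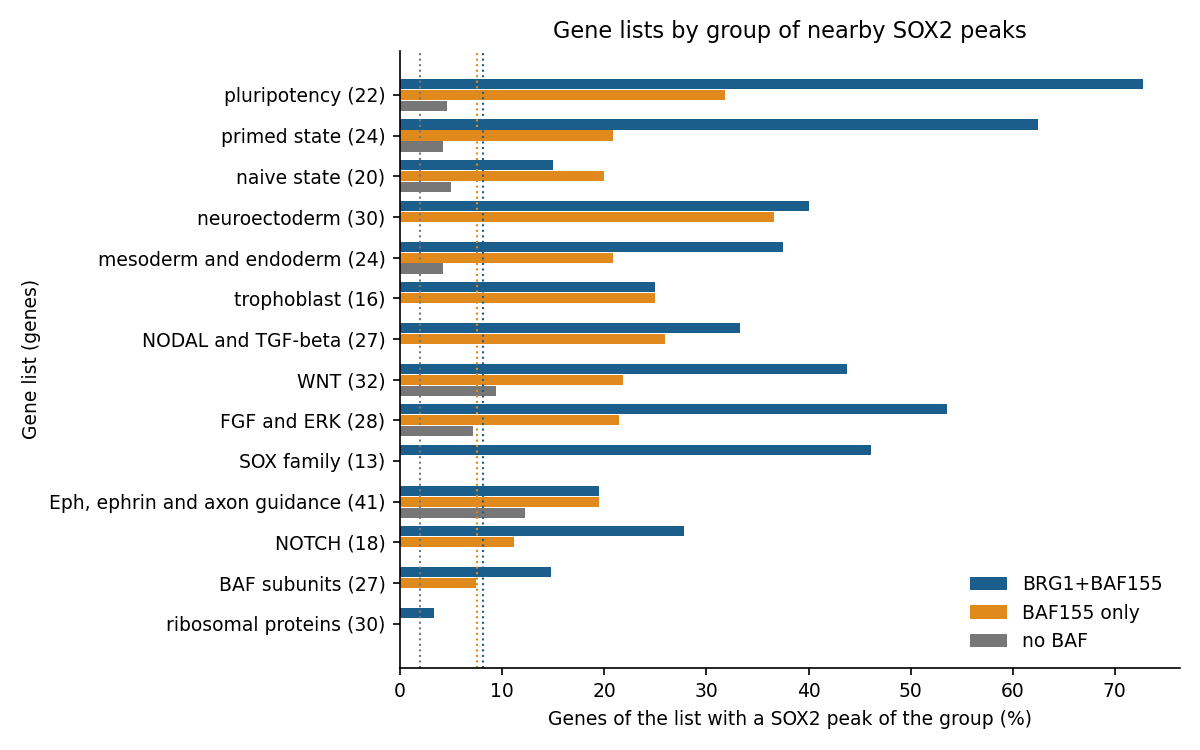
Percent of each list's protein-coding genes (list size in brackets) with a SOX2 peak of each group assigned within 20 kb, and dotted lines for all 20007 protein-coding genes (8.07%, 7.53% and 1.98%). BRG1+BAF155 bars are longest for pluripotency (72.7%) and the primed state (62.5%), and no BAF bars are at 0 for 7 lists.

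The strongest site of the BRG1+BAF155 group lay in an intron upstream of FGFR1 (chromosome 8, 38440195 to 38440988, fold 39.5), 9.94 kb from the TSS, in a BAF region of 4108 bp. The EPHA2 site (chromosome 1, 16115872 to 16116341, fold 36.8) had the summit 33 bp from the centre of a region of 754 bp, whose BRG1 fold of 6.26 and BAF155 fold of 9.64 were the highest among the 5 sites named here. An intronic CDX2 site (chromosome 13, 27965836 to 27966484, fold 35.7) and a promoter site of REST, the repressor of neuronal genes (chromosome 4, 56907349 to 56907773, fold 35.7), followed. The site at ARHGEF38, which encodes a guanine nucleotide exchange factor, had a fold of 32.0. At 4 of these 5 sites there was also a naïve BAF region, the exception being EPHA2.

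In the BAF155 only group the strongest site was in ZBTB16 (chromosome 11, 114232603 to 114233008, fold 29.9), with the summit 37.5 bp from the centre of a region of 449 bp. It was followed by WWTR1 (21.8), GAST, the gastrin gene (21.1), EPCAM, an epithelial adhesion molecule (19.8), DNMT3B (19.2) and ALPG (18.6). The EPCAM site lay 848 bp from the TSS of the noncoding gene BCYRN1, 10.7 kb upstream of EPCAM. BAF155 folds at these 6 sites were 2.85 to 5.43, within the range of 2.28 to 6.99 over the group.

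No BAF sites near genes reached lower folds. The strongest was in an intron at DOCK11, which encodes a guanine nucleotide exchange factor (chromosome X, 118560430 to 118560858, fold 14.8), 25.5 kb from the nearest BAF region. The UNC5D site (chromosome 8, 35533388 to 35533788, fold 13.8) had a summit sequence with 20 copies in hg38. PILRA (chromosome 7, 100370384 to 100370710, fold 13.3) was 58.0 kb from a BAF region and CAMLG (chromosome 5, 134749441 to 134749748, fold 12.7) 8.65 kb. HTR3A, a serotonin receptor subunit (12.7), and PDLIM1, a cytoskeletal adaptor (11.7), were 1.34 kb and 1.19 kb from one. Only the CAMLG site of these 6 had naïve SOX2 and naïve BAF as well.

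Genes with most peaks differed between groups. In the BRG1+BAF155 group BCOR, a subunit of Polycomb complexes, had 7 peaks with folds of 5.02 to 23, of which 3 lay in 1 BAF region of 20090 bp. ZNF608 had 6, and AUTS2 and the homeobox gene MEIS2 had 5 each. BAF155 only peaks numbered 4 at MCC, DENND2B, SHROOM4 and CCDC85C and 3 at SND1, with folds of 4.11 to 17.7. No gene had more than 2 no BAF peaks, and by fold the first were UNC5D, PDE4D, DNAJB5, GMDS and CCDC33. Both DNAJB5 peaks were at its promoter, 510 bp and 443 bp from a TSS.

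At 9 loci, mostly of pluripotency and primed-state genes, none of the 26 SOX2 peaks within 60 kb was in the no BAF group. That group held 11.6% of all SOX2 peaks. The loci were chosen with earlier results known. The study itself reports BAF-bound enhancers at SALL1, PTPRZ1 and SOX2, so the count at these loci tests nothing. SOX2 (chromosome 3) had 5 BRG1+BAF155 and 2 BAF155 only peaks. The site 4.21 kb downstream of its start was the strongest (24.2), and 3 peaks at 44.3 to 46.2 kb shared 1 BAF region of 2268 bp. POU5F1 had 2 BRG1+BAF155 peaks (19.2 and 13.7) in 1 region of 1778 bp, and the stronger one had an element with 2 mismatches. At NANOG the TSS peak had both subunits (5.48), whereas the stronger peak 1.51 kb downstream (8.67), with the exact element printed above, had BAF155 alone and a summit sequence with 2 copies in hg38. OTX2 had 3 peaks with both subunits (8.44 to 24.2) and 1 with BAF155 alone (5.79).

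At PTPRZ1 the strongest peak, 65.6 kb into the gene (25.4), had both subunits, and the BAF155 only peak 64.3 kb into the gene (6.08) had its element at the summit itself. LEFTY1 had 1 peak with both subunits (19.4) and 2 with BAF155 alone (8.42 and 14.8), and an element with at most 2 mismatches was found at all 3. SALL1 had 2 peaks with both subunits (6.83 and 11.9) and ZIC2 had 2 (6.94 and 6.73), none of them with the element. EPHA2 had the 1 peak described above.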

How the data were processed

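The ChIP-seq peak lists of primed WIBR3 cells were used, with the naïve lists for comparison. Per the methods of the study, reads were trimmed with trim_galore, mapped to hg38 with Bowtie2 (2.3.4 in the submitters' processing notes), cleared of duplicates with SAMtools (0.1.19) or PICARD, and called with MACS2 against input, as narrow peaks for SOX2 and broad peaks for the BAF subunits. The deposited lists give a score, a fold enrichment (a linear ratio over input) and −log10 of the p-value and q-value, all as the authors' peak caller wrote them. The second primed SOX2 list gives positions only. Of 9291 deposited SOX2 peaks 9290 lay on the main chromosomes. Read depth was not used here. Absence of a peak means that nothing passed the authors' calling threshold, which was lower for BAF (lowest −log10 q 1.01) than for SOX2 (1.35).

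BRG1 peaks (15611) and BAF155 peaks (58352) were merged where they touched. TSSs and introns came from GENCODE release 44, and sequences from hg38 (samtools 1.23.1, pysam 0.24.0). Motifs were searched on both strands in 200 bp at the summit, with no mismatch except 2 in the OCT4-SOX2 element and 1 in the CTCF consensus. Copies of the 31 bases at each summit were counted on both strands of hg38. Intervals used scipy 1.17.1. Grouping, distances and motif search were tested on simulated data.

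The division into groups, the gene lists and the rule for named sites were chosen with earlier results of these data known. Named sites were the 6 peaks of highest fold per group within 20 kb of a protein-coding TSS, the 5 genes per group with most peaks, all peaks within 60 kb of 9 loci, and up to 4 list members per group by fold, beyond which SOX family, RUNX1 and the sequences shown were chosen after their values were seen. A few items that the rule names are not reported here. Alternatives changed the overlap rule, the thresholds of both lists, the window, the mismatches and the TSS set.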

Additional observations from a re-analysis of the deposited data

How the results depend on the processing

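No paired analysis was possible because no test was made and both primed SOX2 lists hold the same coordinates. Of 108 alternative values 58 stayed within the counting interval of the reported value, or within 1.5 times a count of genes, and 50 did not. The causes were not tested.

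The group shares, in the order BRG1+BAF155, BAF155 only and no BAF, were 28.4%, 35.0% and 36.6% with 25% of both regions required, and 11.1%, 21.8% and 67.1% with 50% of both. With BAF peaks of −log10 q of at least 3 they were 19.6%, 51.1% and 29.2%, and with the BAF155 list held to as many top peaks as the BRG1 list 38.0%, 15.8% and 40.2%. When the SOX2 peak had to meet the subunit's own peak, the first 2 shares were 41.8% and 46.5%. The no BAF share was 10.9% with SOX2 peaks of −log10 q of at least 3 and, in an alternative chosen after seeing the data, 10.6% without peaks whose summit sequence is repeated.

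Summits in the central 33.3% of the region made up 60.3% (BRG1+BAF155) and 50.9% (BAF155 only) with 25% of both, 52.7% and 50.4% with the stricter BAF peaks, and 57.4% and 49.4% in regions of 300 to 1500 bp. For BAF155 only the share was 49.1% with peak midpoints and with the second SOX2 list, which has no summits, so it was 49.1% when the first list was left out.

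Promoter shares were 11.5%, 10.9% and 24.5% with 25% of both, 14.0%, 16.4% and 16.9% with the stricter BAF peaks, and 13.5%, 9.51% and 7.27% with TSSs of protein-coding genes. In the second of 4 classes of fold BRG1+BAF155 had 23.5% and no BAF 7.77%.

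OCT4-SOX2 shares were 4.58%, 4.68% and 3.91% with up to 1 mismatch and 14.0%, 12.5% and 9.97% in a 100 bp window. For BRG1+BAF155 they were 21.5% with 25% of both, 21.6% with the stricter BAF peaks and 16% in the second class of fold.

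Gene counts were 951 (BRG1+BAF155) and 1460 (no BAF) with 25% of both, 662 and 1111 with the stricter BAF peaks, and 2406 (BAF155 only) and 719 (no BAF) within 100 kb. Leaving out either SOX2 list kept each group share at its reported value, since the coordinates are the same.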
